A study of Mus musculus with 4 samples.

Results

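The nuclear genes of the respiratory chain were followed in gonadal white adipose tissue (gWAT), a visceral fat pad, of obese mice with or without the SGLT2 inhibitor canagliflozin (Cana), a drug that blocks glucose reuptake in the kidney. The members were the genes with a name that begins with Nduf, 1 of the letters a, b, c, s or v and a number, with Uqcr, with Cox4 to Cox8 or with Atp5, or that is Sdha, Sdhb, Sdhc or Sdhd, and whose mean over the 4 mice was 1 TPM or more. TPM, a unit scaled to the same total in every sample, is the share of a gene among all transcripts of a sample after division by transcript length. Of 45706 listed genes, 82 had such a name and 80 of these reached the floor, among 13788 genes that reached it in all. The 2 names below the floor were the testis isoforms Cox7b2, which was listed at 0 TPM in every mouse, and Cox8c, which was listed at 0.395 TPM in 1 HFD mouse and at 0 in the other mice. The member just inside the floor was Cox6a2 with a mean of 2.29 TPM. Assembly factors (Ndufaf and Sdhaf genes), Ndufab1, pseudogene names (4) and the isoforms Cox7a1 and Cox8b were outside the rule, and the last pair is described for its values alone. The names gave 37 members of complex I, 4 of complex II, 8 of complex III, 14 of complex IV and 17 of complex V.

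All 4 mice were C57B6/N mice by the labels (C57BL/6 in the methods) kept on a high-fat diet (HFD) for 2 months, and the methods describe males. The HFD+Cana group (2 mice) had canagliflozin in this food at 0.03% by weight for 7 days, and the HFD group (2 mice) had the food without the drug. The labels give no age, and no group on normal chow was part of the series, so every value below is from obese animals. The comparison asks what short treatment with the inhibitor did to RNA levels in visceral fat. The depth of each sample is unknown because TPM does not record read numbers. Genes listed above 0 TPM numbered 21068 and 21101 in the HFD+Cana mice and 19884 and 21129 in the HFD mice, and HFD 1 was thus the sample with the fewest. The tissue label was checked against 10 adipocyte genes, which were all at or above 1 TPM in every mouse, with a summed level of 49821 and 61127 TPM in the HFD+Cana mice and 51719 and 54680 TPM in the HFD mice. In whole tissue, fewer cells of a type and less RNA per cell cannot be told apart. Libraries differed in markers of other cells as well. The sum of 5 red blood cell genes was 14391 and 6673 TPM in the HFD+Cana mice, against 1756 and 5940 TPM in the HFD mice. The sum of 10 genes of mesothelium, the layer that covers the fat pad, was 253 and 379 TPM in the HFD+Cana mice, against 140 and 112 TPM in the HFD mice. The sum of 10 hepatocyte genes was 1666 and 2624 TPM in HFD+Cana, against 788 and 1621 TPM in HFD, of which Cyp2e1 made up 1562 and 2478 TPM in HFD+Cana and 778 and 1612 TPM in HFD. This sum thus mostly follows Cyp2e1, in which the groups overlapped, and does not show the size of the difference in the rest of the list. The median log2 fold change of these 10 genes was 2.02, with 9 higher without overlap, against 24.3% of all genes. At an adjusted p of 0.05 in limma 3 of them were called, among 6 called in the whole table. The part of these cells in the values below was not tested.

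The respiratory chain sits in the inner membrane of mitochondria. Complexes I and II take electrons from NADH and succinate, complex III passes them to cytochrome c, complex IV gives them to oxygen, and complex V (ATP synthase) uses the resulting proton gradient to make ATP. Most subunits are encoded in the nucleus and a smaller set, which lies in the membrane, in mitochondrial DNA. White adipocytes hold few mitochondria compared with brown adipocytes, and some subunits of complex IV have separate isoforms for muscle, brown fat, lung or testis.

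Many nuclear subunit genes share short promoter motifs, and the promoters of 5 members are shown because they cover a widely expressed isoform, its partner with the largest difference between the groups, and genes with and without these motifs. Windows run from 250 bases before to 50 bases after each start site and come from RefSeq on build GRCm38.p6. A window was found for 66 of the 80 members. Capitals mark the matches to 4 motifs searched on both strands. These were the core of the NRF-1 site (GCGCATGC, reverse GCATGCGC), an ETS core as bound by GABP (CCGGAAG, reverse CTTCCGG), a YY1 core (AAGATGGC, reverse GCCATCTT) and an ERR core (AAGGTCA, reverse TGACCTT). Cox6b1 (chr7:30626065-30626364, minus strand) encodes the widely expressed form of a subunit that faces the intermembrane space and held 1 ETS core. Cox6b2 (chr7:4753045-4753344, minus strand) encodes its testis form and held no match. Sdhb (chr4:140961021-140961320, plus strand), the iron-sulfur subunit of complex II, held an NRF-1 core and an ETS core. Uqcrc1 (chr9:108936398-108936697, plus strand), a core subunit of complex III, held the NRF-1 core on both strands, overlapping. Ndufs5 (chr4:123718137-123718436, minus strand), an accessory subunit of complex I, held an ERR core.
Cox6b1: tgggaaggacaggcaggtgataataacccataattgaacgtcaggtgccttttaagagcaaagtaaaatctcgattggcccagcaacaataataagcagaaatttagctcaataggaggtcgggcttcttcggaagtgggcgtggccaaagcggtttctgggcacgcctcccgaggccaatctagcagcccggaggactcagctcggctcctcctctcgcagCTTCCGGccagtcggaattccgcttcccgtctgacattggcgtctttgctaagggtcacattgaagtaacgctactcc
Cox6b2: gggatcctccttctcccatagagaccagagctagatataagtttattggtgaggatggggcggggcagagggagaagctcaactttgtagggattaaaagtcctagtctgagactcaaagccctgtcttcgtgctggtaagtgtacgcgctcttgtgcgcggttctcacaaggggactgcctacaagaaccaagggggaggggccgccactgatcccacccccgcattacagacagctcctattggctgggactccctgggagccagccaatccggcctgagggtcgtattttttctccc
Sdhb: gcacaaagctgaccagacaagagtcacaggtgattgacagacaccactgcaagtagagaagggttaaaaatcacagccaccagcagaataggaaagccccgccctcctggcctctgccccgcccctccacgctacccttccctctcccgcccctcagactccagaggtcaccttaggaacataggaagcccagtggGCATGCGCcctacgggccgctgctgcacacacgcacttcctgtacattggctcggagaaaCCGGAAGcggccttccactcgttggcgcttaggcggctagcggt
Uqcrc1: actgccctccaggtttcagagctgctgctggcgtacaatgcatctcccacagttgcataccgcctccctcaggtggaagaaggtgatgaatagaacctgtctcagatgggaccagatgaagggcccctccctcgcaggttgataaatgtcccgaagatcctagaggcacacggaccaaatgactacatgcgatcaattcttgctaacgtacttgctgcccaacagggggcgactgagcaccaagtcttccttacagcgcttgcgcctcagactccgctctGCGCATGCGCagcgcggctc
Ndufs5: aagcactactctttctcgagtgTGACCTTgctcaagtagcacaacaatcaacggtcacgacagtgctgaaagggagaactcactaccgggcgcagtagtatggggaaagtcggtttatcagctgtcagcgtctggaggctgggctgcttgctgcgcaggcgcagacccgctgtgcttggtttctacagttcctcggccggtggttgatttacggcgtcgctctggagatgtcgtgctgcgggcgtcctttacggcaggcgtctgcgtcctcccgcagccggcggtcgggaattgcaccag

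The NRF-1 core was present in 10 of the 66 member windows (15.2%), against 2.80% of 27025 gene windows of the same length. The ETS core was present in 15 (22.7%, against 9.12% of all windows), the YY1 core in 10 (15.2%, against 2.88%) and the ERR core in 8 (12.1%, against 4.66%). At least one of the first 3 motifs was present in 30 member windows (45.5%), against 13.8% of all windows. These shares describe letters in a window and not sites in use. The median log2 fold change of HFD+Cana over HFD was -0.057 with and 0.00072 without the NRF-1 core, -0.047 with and 0.011 without the ETS core, 0.065 with and -0.024 without the YY1 core, and -0.057 with and 0.011 without the ERR core. Members with and without each motif thus lay close to 0 alike.

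No member was called, and the members as a group lay very near 0 between HFD+Cana and HFD gWAT. The group was compared in limma on log2(TPM + 1) over all 13788 genes, with Benjamini-Hochberg adjustment, and fold changes below are on this scale, where the added 1 draws the changes of low genes towards 0. At an adjusted p of 0.05, 0 of 80 members were called, against 0.0435% of all genes tested (6 genes). The smallest adjusted p of a member was 0.234 in limma. At an unadjusted p under 0.05, 3 members were higher in HFD+Cana (Cox6b2, Uqcrc2 and Ndufb10), against 5.32% of all genes, and 2 were lower (Ndufs5 and Uqcrq), against 5.45% of all genes. Both shares were below those of all genes. At a mean of 40 TPM or more, 2 of 73 members were higher and 2 lower at that p in limma. Among all 3500 genes of that level, 133 were higher and 342 lower. The median log2 fold change was -0.013 over the members and 0.019 over all genes, with 38 members above and 42 below 0.

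The differences were also small in size. The median absolute log2 fold change was 0.087 over the members, 0.131 over all genes and 0.113 over the 3500 genes whose mean was 40 TPM or more, the level range of most members. A total of 70 members lay within 0.2 of 0 on the log2 scale and 77 (96.2%) within 0.3, against 82.2% of all genes and 86.3% of genes of at least 40 TPM. For 77 members (96.2%) the 95% interval of the difference excluded a change of 1.5-fold in either direction, against 62.5% of all genes and 78.0% of genes of at least 40 TPM. The 3 others were Cox6b2, Cox6a2 and Cox4i2, all isoforms of complex IV. Such intervals draw on the spread of other genes of similar level as well as on that between these mice. The 73 members of at least 40 TPM ran from -0.29 to 0.24, and the 7 members below that level from -0.85 to 0.94. In 18 members the HFD+Cana mice were both above the HFD mice (22.5%, against 24.3% of all genes and 18.5% of genes of at least 40 TPM), in 25 both were below (31.2%, against 19.8% of all genes and 28.2% of genes of at least 40 TPM), and in 37 the groups overlapped. With 2 mice in each group the smallest two-sided p of an exact permutation test is 0.333.

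**Figure D1:**
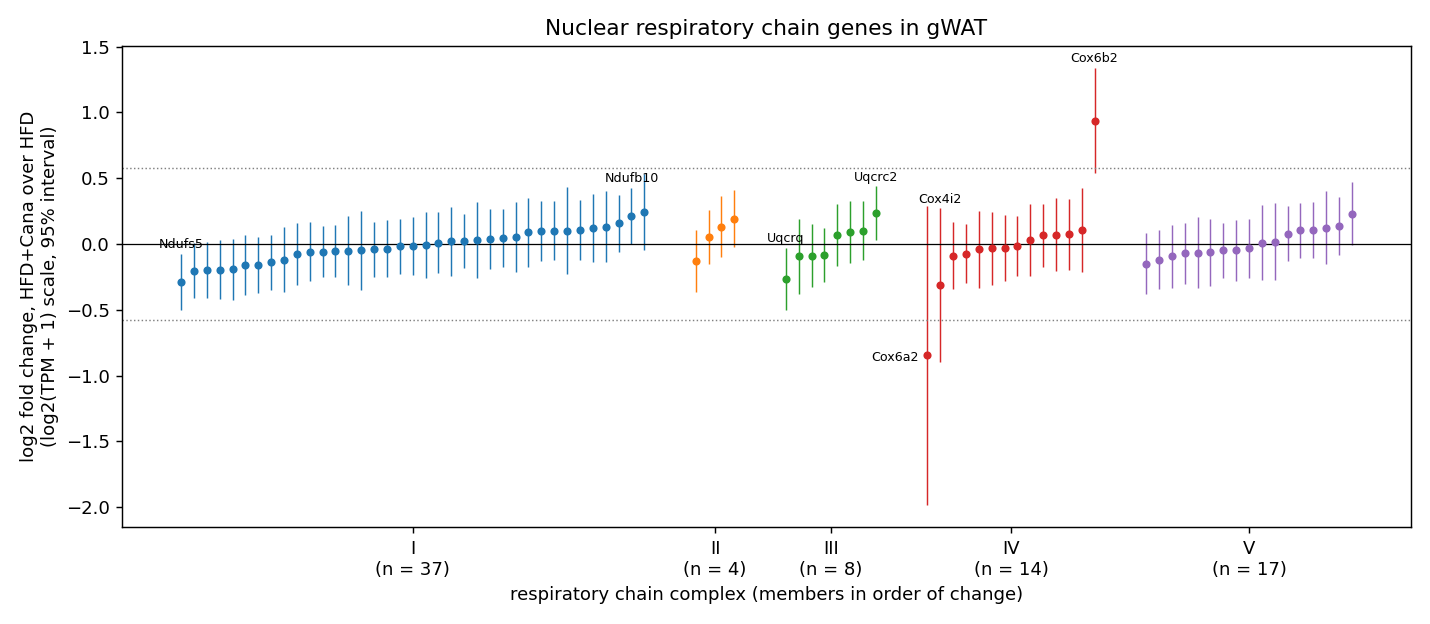
Log2 fold change of HFD+Cana over HFD for each of the 80 members on the log2(TPM + 1) scale (vertical axis), ordered by size within complexes I to V (horizontal axis), with points for the estimate, bars for its 95% interval in limma (2 mice per group) and dotted lines at 1.5-fold. All intervals lie within the dotted lines except those of Cox6b2, Cox6a2 and Cox4i2 in complex IV.

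The summed level of all members was 22826 and 23959 TPM in the HFD+Cana mice, against 23610 and 23191 TPM in the HFD mice. This was 2.28% and 2.40% of all transcripts in HFD+Cana and 2.36% and 2.32% in HFD, so the groups overlapped. Complex I summed to 7374 and 7728 TPM in HFD+Cana, against 7594 and 7480 TPM in HFD. Complex III summed to 2658 and 2796 TPM in HFD+Cana, against 2790 and 2748 TPM in HFD. Complex IV, which holds the oxygen-binding site, summed to 5835 and 6218 TPM in HFD+Cana, against 6083 and 5973 TPM in HFD. Complex V summed to 6322 and 6544 TPM in HFD+Cana, against 6531 and 6367 TPM in HFD. In these 4 complexes the groups overlapped. Complex II alone did not, with 637 and 673 TPM in HFD+Cana, against 611 and 623 TPM in HFD.

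**Figure D2:**
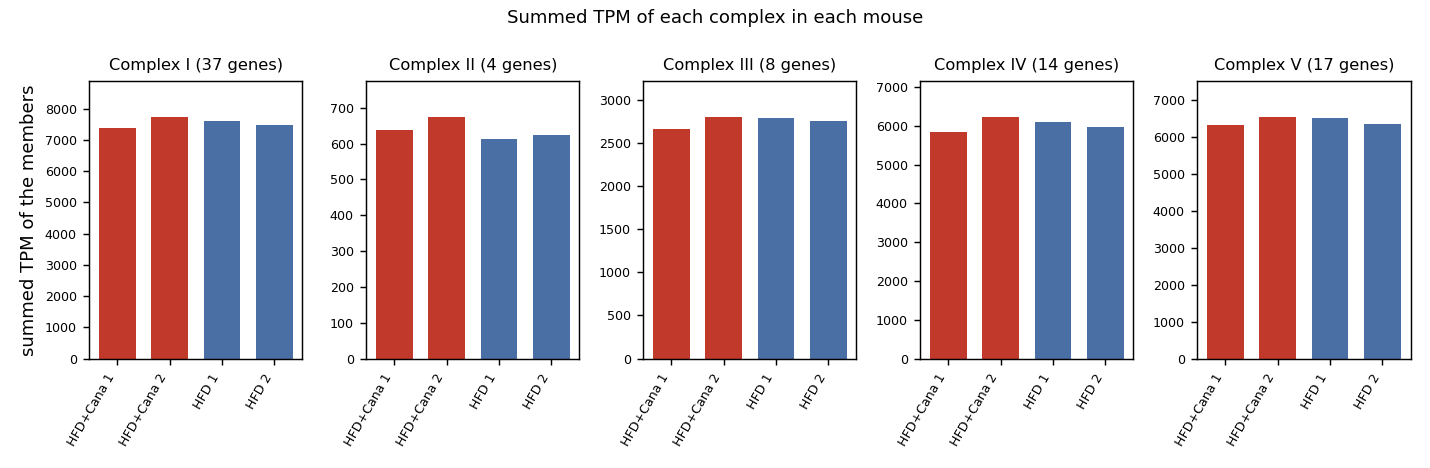
Summed TPM of the members of each complex (vertical axis from 0, a scale of its own in each panel) in each mouse (horizontal axis, HFD+Cana red, HFD blue). Only complex II has both HFD+Cana mice, at 637 and 673 TPM, above both HFD mice, at 611 and 623 TPM.

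Complex I, the NADH dehydrogenase, lay at a median log2 fold change of -0.013 across its 37 members, with a range from -0.29 to 0.24. Its levels spanned 21.9 to 723 mean TPM, with a median of 153. The 7 core subunits, which form the catalytic arm outside the membrane, ran from -0.14 to 0.10 with a median of 0.047. None of them passed an unadjusted p of 0.05 in limma. The other 30 members had a median of -0.026. The groups did not overlap for 6 higher (16.2%, against 24.3% of all genes) and 12 lower members (32.4%, against 19.8%). Among genes of at least 40 TPM, the level of most of these members, the shares were 18.5% higher and 28.2% lower.

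The accessory subunit Ndufs5 had 236 and 243 TPM in the HFD+Cana mice, against 287 and 299 TPM in the HFD mice. The groups did not overlap, and the log2 fold change was -0.29 (standard error 0.08, unadjusted p = 0.0187 and adjusted p = 0.362 in limma). Of the 31-base stretches of its transcripts 26.5% also occur in the gene BC002163, which was listed at no more than 1.19 TPM in any mouse, and adding that gene left the value at -0.29. Ndufb6, an accessory subunit of the membrane arm, had 123 and 130 TPM in HFD+Cana, against 146 and 145 TPM in HFD (log2 fold change -0.20, standard error 0.08). Ndufb10, another accessory subunit of that arm, had 255 and 267 TPM in HFD+Cana, against 227 and 223 TPM in HFD. The log2 fold change was 0.21 (standard error 0.08, adjusted p = 0.459 in limma). These accessory genes therefore lay in opposite directions by similar amounts. Ndufa4, which was first assigned to complex I and is now known as a subunit of complex IV, had the highest level of the Nduf genes. It had 696 and 744 TPM in HFD+Cana, against 725 and 725 TPM in HFD (log2 fold change -0.0095), and the HFD mice lay between the HFD+Cana mice. Counting it and Ndufa4l2 in complex IV left the medians at -0.013 for complex I and -0.021 for complex IV.

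Complex II, succinate dehydrogenase, joins the chain to the citric acid cycle and has no subunit encoded in mitochondrial DNA. The groups did not overlap for any of its 4 members, of which 3 were higher and 1 lower (24.3% and 19.8% of all genes, 18.5% and 28.2% of genes of at least 40 TPM). The median log2 fold change was 0.093. No member passed an unadjusted p of 0.05 in limma. Sdha, the flavoprotein that oxidizes succinate, had 231 and 249 TPM in HFD+Cana, against 215 and 222 TPM in HFD (log2 fold change 0.13, standard error 0.09). Sdhb, the iron-sulfur subunit whose promoter is shown above, had 157 and 158 TPM in HFD+Cana, against 133 and 143 TPM in HFD. The log2 fold change was 0.19, with a standard error of 0.08 (adjusted p = 0.490 in limma). The membrane anchors did not go together. Sdhc had 93.2 and 103 TPM in HFD+Cana, against 109 and 105 TPM in HFD (log2 fold change -0.13, standard error 0.09). Sdhd had 156 and 162 TPM in HFD+Cana, against 155 and 152 TPM in HFD (log2 fold change 0.052, standard error 0.08). The largest of these 4 differences was 1.14-fold in mean TPM.

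Complex III, the cytochrome bc1 complex, lay at a median log2 fold change of -0.0075 across its 8 members. Uqcrc2, one of the core proteins, had 139 and 143 TPM in HFD+Cana, against 122 and 117 TPM in HFD. Its log2 fold change was 0.24 (standard error 0.08, adjusted p = 0.423 in limma). Uqcrc1, the other core protein (named after its values were seen), lay on the other side of 0, with 174 and 170 TPM in HFD+Cana, against 185 and 180 TPM in HFD (log2 fold change -0.084). Uqcrq, a small subunit beside cytochrome b, had 291 and 315 TPM in HFD+Cana, against 368 and 359 TPM in HFD. Its log2 fold change was -0.26 (standard error 0.09, adjusted p = 0.441 in limma). Uqcrb, another small subunit beside cytochrome b, had 457 and 440 TPM in HFD+Cana, against 419 and 417 TPM in HFD (log2 fold change 0.10, standard error 0.08). The 2 small subunits thus lay in opposite directions, with no overlap of the groups in either. Uqcr11, the subunit of highest level in this complex, had 574 and 656 TPM in HFD+Cana, against 661 and 648 TPM in HFD, and the groups overlapped (log2 fold change -0.093, standard error 0.11).

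Complex V lay at a median log2 fold change of -0.032 across its 17 members, and 0 of them passed an unadjusted p of 0.05 in limma. Atp5b, the catalytic beta subunit and the most abundant member of all, had 1024 and 1143 TPM in HFD+Cana, against 1085 and 1054 TPM in HFD (log2 fold change 0.017, standard error 0.11). The 5 genes of the catalytic head F1 had a median of -0.071 and ran from -0.12 to 0.14. Atp5c1, the gamma subunit that turns inside the head, had 359 and 360 TPM in HFD+Cana, against 336 and 319 TPM in HFD (log2 fold change 0.14, standard error 0.08). Atp5h, the d subunit of the stator, had 561 and 547 TPM in HFD+Cana, against 488 and 455 TPM in HFD. The log2 fold change was 0.23, with a standard error of 0.09 (adjusted p = 0.476 in limma), the largest in this complex, and its near copy Gm10250 was listed at 2.02 TPM or less.

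The c ring, which turns as protons pass, is made of 1 protein encoded by 3 genes, so their levels can be compared as sources of the same product. Atp5g3 had 550 and 571 TPM in HFD+Cana, against 624 and 619 TPM in HFD (log2 fold change -0.15, standard error 0.09). Atp5g2 had 290 and 288 TPM in HFD+Cana, against 273 and 264 TPM in HFD (log2 fold change 0.11, standard error 0.08). Atp5g1 had 110 and 102 TPM in HFD+Cana, against 117 and 105 TPM in HFD, with overlap (log2 fold change -0.063, standard error 0.10). Together they summed to 950 and 962 TPM in HFD+Cana, against 1015 and 988 TPM in HFD. Atp5g2 shares 40.2% of its 31-base stretches with the gene Gm10175, the highest share of any member, and that gene was listed at 3.64 TPM or less. Atp5s and Atp5sl fit the name rule but are named Dmac2l and Dmac2 in RefSeq and are not classical subunits of the enzyme. They were among the lowest members, with a mean of 9.19 and 19.0 TPM and log2 fold changes of 0.011 and 0.12.

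Complex IV, cytochrome c oxidase, lay at a median log2 fold change of -0.021 across its 14 members but the widest range of any complex, from -0.85 to 0.94. The spread lay in its isoforms of low level. Cox6b2, the testis form of subunit 6B (gene at chr7:4751792-4753094, minus strand, GRCm38), had 14.2 and 11.3 TPM in the HFD+Cana mice, against 5.66 and 6.66 TPM in the HFD mice. The HFD+Cana values were both above the HFD values, and the mean was 12.8 ± 1.98 TPM in HFD+Cana and 6.16 ± 0.712 TPM in HFD (SD, n = 2 each), a ratio of 2.07. The log2 fold change was 0.94 (standard error 0.15, 95% interval 0.54 to 1.34, unadjusted p = 0.00215 and adjusted p = 0.234 in limma), so the gene did not pass over all genes. Leaving out single mice gave 0.79 to 1.09. Its transcripts share no 31-base stretch with another gene. The flanking gene Kmt5c had 45.3 and 34.1 TPM in HFD+Cana, against 39.0 and 30.6 TPM in HFD (log2 fold change 0.18), and Fam71e2 on the other side was at 0.061 TPM or less in every mouse. A list of 6 male germ cell genes summed to 2.37 and 11.1 TPM in the HFD+Cana mice, against 0 and 15.9 TPM in the HFD mice, and 2 of them reached the floor of 1 TPM. The part of such cells in the Cox6b2 values was not tested.

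The widely expressed partner Cox6b1 had 857 and 964 TPM in HFD+Cana, against 941 and 931 TPM in HFD (log2 fold change -0.041, standard error 0.11). Cox6b1, Cox6a1, Cox8a and Cox7a2 fall outside the rule for named genes and were named after their values were seen. Cox6b2 made up 1.62% and 1.16% of the summed TPM of both forms in HFD+Cana, against 0.598% and 0.711% in HFD. Most RNA of the pair was thus Cox6b1 in every mouse.

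The other isoforms of low level had values on the other side of 0. Cox6a2, the heart and skeletal muscle form of subunit 6A, had 2.36 and 0.531 TPM in HFD+Cana, against 3.81 and 2.45 TPM in HFD. The difference rested on HFD+Cana 2, since HFD+Cana 1 lay close to HFD 2. Its log2 fold change was -0.85 (standard error 0.43, adjusted p = 0.547 in limma), and it was -0.28 without HFD+Cana 2 and -1.41 without HFD+Cana 1. Cox4i2, the form of subunit 4 found in lung, had 9.17 and 12.7 TPM in HFD+Cana, against 11.5 and 16.1 TPM in HFD, with overlap (log2 fold change -0.31, standard error 0.22, and -0.54 to -0.087 when single mice were left out). Ndufa4l2, a relative of Ndufa4 known to rise in hypoxia, had 31.7 and 31.9 TPM in HFD+Cana, against 35.6 and 37.7 TPM in HFD (log2 fold change -0.20, standard error 0.08, adjusted p = 0.480 in limma). Cox7a2l, known for joining complexes III and IV into a supercomplex, had 273 and 247 TPM in HFD+Cana, against 272 and 258 TPM in HFD, with overlap (log2 fold change -0.030).

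Cox8b and Cox7a1, the isoforms of muscle and brown fat that were not counted as members, were lower in both HFD+Cana mice. Cox8b had 20.9 and 38.5 TPM in HFD+Cana, against 82.0 and 64.8 TPM in HFD. Its log2 fold change was -1.33 (standard error 0.31, unadjusted p = 0.00908 and adjusted p = 0.290 in limma), and it made up 2.27% and 3.92% of Cox8a and Cox8b together in HFD+Cana, against 7.76% and 6.18% in HFD. Cox7a1 had 16.9 and 12.8 TPM in HFD+Cana, against 20.4 and 20.6 TPM in HFD (log2 fold change -0.45, standard error 0.15, adjusted p = 0.429 in limma). The widely expressed partners were close to 0, with log2 fold changes of 0.032 for Cox4i1, -0.034 for Cox6a1, -0.087 for Cox8a and -0.072 for Cox7a2. Cox4i1 had the highest level of complex IV, with 966 and 1056 TPM in HFD+Cana, against 986 and 990 TPM in HFD.

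**Figure D3:**
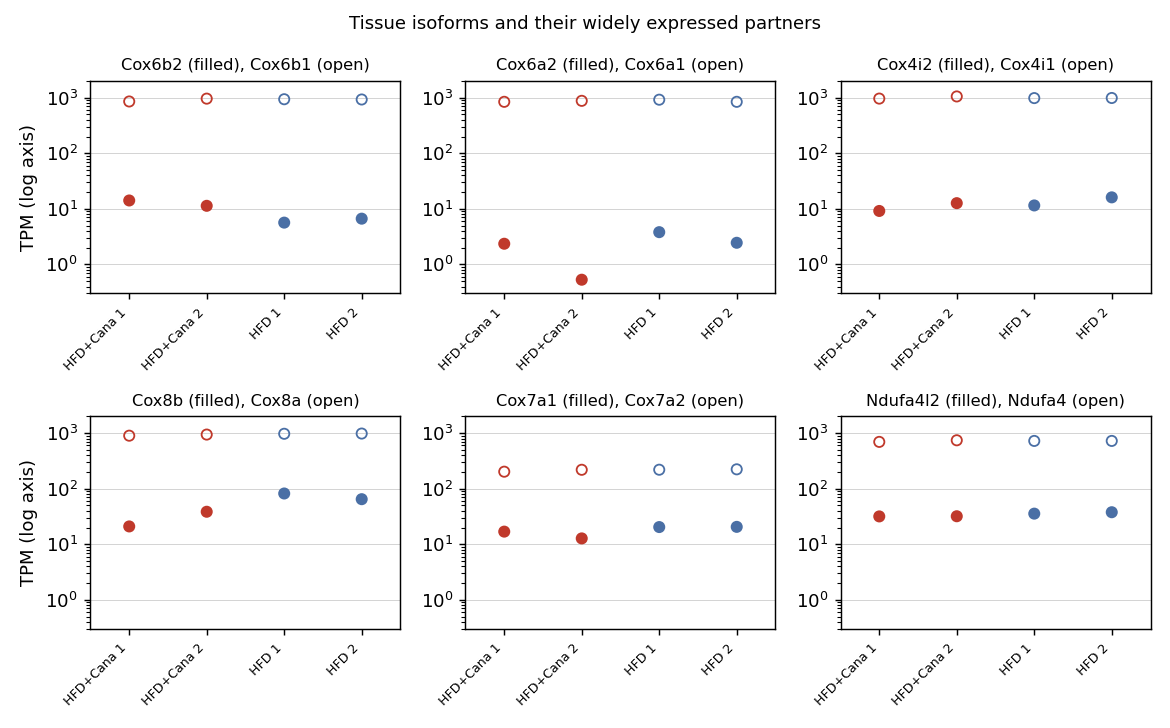
TPM on a log axis (vertical) of 6 low isoforms (filled) and their widely expressed partners (open) in each mouse (horizontal axis, HFD+Cana red, HFD blue). Cox6b2 lies higher in both HFD+Cana mice (14.2 and 11.3 TPM) than in both HFD mice (5.66 and 6.66 TPM), Cox8b lies lower (20.9 and 38.5 TPM, against 82.0 and 64.8 TPM), and the partners lie between -0.087 and 0.032 on the log2 fold change scale.

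Markers of muscle and of thermogenic fat were read beside these isoforms. A list of 12 skeletal muscle genes summed to 109 and 195 TPM in HFD+Cana, against 231 and 277 TPM in HFD, of which 4 and 5 genes were at or above 1 TPM in the HFD+Cana mice and 3 and 9 in the HFD mice. The muscle creatine kinase Ckm was at 0.224 and 0.025 TPM in HFD+Cana, against 0 and 11.4 TPM in HFD, and it reached 1 TPM only in HFD 2. Acta1, skeletal muscle actin, carried most of that sum, with 99.3 and 187 TPM in HFD+Cana, against 220 and 195 TPM in HFD. Tnnc2, a troponin of fast muscle, had 1.92 and 2.60 TPM in HFD+Cana, against 5.92 and 14.0 TPM in HFD. In both genes, as in Cox8b, the HFD+Cana mice were below the HFD mice. Myh4 lay lower as well, with 0.021 and 0 TPM in HFD+Cana, against 0.022 and 8.07 TPM in HFD, but hardly apart from HFD 1. Ckm, Myh4 and Atp2a1 were below 1 TPM in every mouse but HFD 2. They passed the floor through that mouse alone, so no count by direction is given for this list. In Mylpf, Tnni2, Tnnt3, Atp2a1 and Actn3 the groups overlapped and HFD 2 was the highest mouse. Tnni2, for example, had 1.39 and 0.698 TPM in HFD+Cana, against 0.964 and 10.7 TPM in HFD. A list of 8 thermogenic adipocyte genes, which itself holds Cox8b and Cox7a1, summed to 47.6 and 60.1 TPM in HFD+Cana, against 117 and 99.3 TPM in HFD, with 5 genes at or above 1 TPM in every mouse, and its defining marker Ucp1 was at 0.110 TPM or less in each. Cox8b, at 82.0 and 64.8 TPM in the HFD mice, made up most of the sum there, so the list is not independent of these isoforms. Of the 5 tested, 4 were lower at an unadjusted p under 0.05 in limma (5.45% of all genes), Cox8b and Cox7a1 among them. The others were Otop1, a proton channel, with 1.71 and 1.36 TPM in HFD+Cana, against 5.27 and 3.62 TPM in HFD, and Cpt1b, the muscle form of the carnitine palmitoyltransferase of mitochondria, with 4.16 and 2.99 TPM in HFD+Cana, against 6.03 and 5.16 TPM in HFD. The remaining gene tested, Cidea, lay on the other side of 0, with overlap. It had 3.35 and 3.96 TPM in HFD+Cana, against 2.19 and 4.21 TPM in HFD (log2 fold change 0.19, standard error 0.27). Ucp1, Dio2 and Elovl3 were below the floor and were not tested. Muscle and thermogenic genes were named after their values were seen. The part of muscle or thermogenic cells in the isoform values was not tested.

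Mice of the same group also differed from each other. HFD+Cana 1 was the lowest of the 4 mice in 38 of 80 members and the highest in 14, while HFD+Cana 2 had the lowest in 8 and the highest in 29. HFD 1 had the lowest in 10 and the highest in 30, and HFD 2 the lowest in 24 and the highest in 7. Over the 73 members of at least 40 TPM, 52 were below the mean of the 4 mice in HFD+Cana 1 and 22 in HFD+Cana 2, against 30 in HFD 1 and 39 in HFD 2. The median deviation was -0.047 and 0.031 on the log2 scale in the HFD+Cana mice, against 0.021 and -0.010 in the HFD mice, and single deviations ran from -0.208 to 0.214. Over all 3500 genes of at least 40 TPM the HFD+Cana 1 sample was lowest in 1003 and highest in 889. In the same genes HFD+Cana 2 was lowest in 1041 and highest in 782. HFD 1 was lowest in 661 and highest in 1259, and HFD 2 lowest in 795 and highest in 570. HFD+Cana 1 also had the most red blood cell RNA of the 4. The summed level of 12 macrophage genes was 3849 and 2236 TPM in HFD+Cana, against 3105 and 2197 TPM in HFD. Their part in the deviation was not tested.

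**Figure D4:**
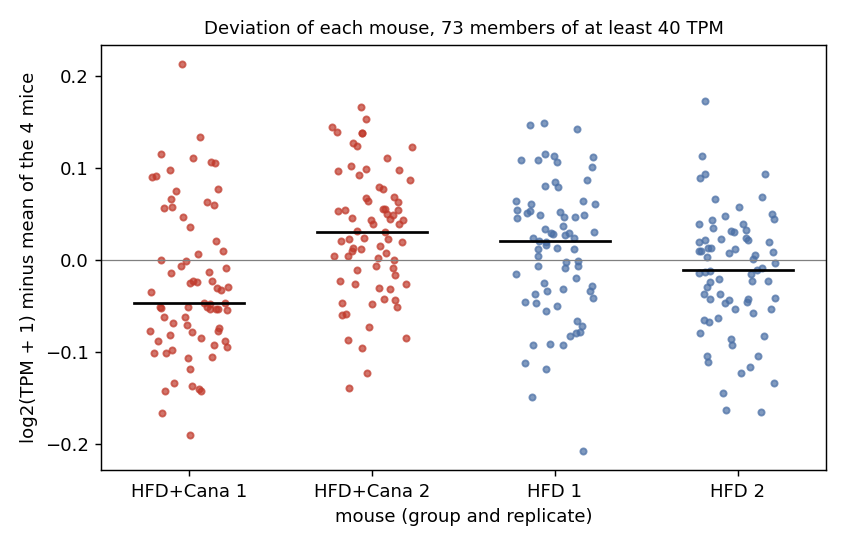
Difference in log2(TPM + 1) between each mouse and the mean of all 4 (vertical axis) for the 73 members whose mean was 40 TPM or more, 1 point per member, with a black line at the median and mice on the horizontal axis (HFD+Cana red, HFD blue). The medians are -0.047 in HFD+Cana 1 and 0.031 in HFD+Cana 2, with both HFD mice between them.

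Of the genes that work with the nuclear subunits 0 passed an adjusted p of 0.05 in limma in any of the lists that follow. The 13 subunits encoded by mitochondrial DNA summed to 79561 and 82213 TPM in HFD+Cana, against 68608 and 83352 TPM in HFD, and HFD 1 alone was low. Their median log2 fold change was 0.12, with 9 above and 4 below 0 and 0 at an unadjusted p under 0.05. Among 45 assembly factors measured the median was -0.064, with 1 higher and 3 lower at an unadjusted p under 0.05 in limma, against 5.32% and 5.45% of all genes. Uqcc1, an assembly factor of complex III, was the furthest of these 4, with 28.1 and 34.1 TPM in HFD+Cana, against 44.1 and 50.2 TPM in HFD (log2 fold change -0.59, standard error 0.13, adjusted p = 0.282 in limma). Among 18 partners and subunits outside the name rule, such as cytochrome c and the ADP/ATP carriers, the median was -0.080, with 0 higher and 4 lower at that p. Of these 18 genes 15 were below 0, and the groups did not overlap for 10 lower and 0 higher genes (19.8% and 24.3% of all genes). Among genes of at least 40 TPM, the level of most of these 18, the shares were 28.2% lower and 18.5% higher. The 4 lower at that p were Cox8b, Cox7a1, Higd1a and Higd2a, of which the last pair encodes small proteins that associate with complexes III and IV. Higd1a had 39.6 and 39.7 TPM in HFD+Cana, against 51.2 and 50.2 TPM in HFD (log2 fold change -0.35, standard error 0.08, adjusted p = 0.272 in limma). Higd2a had 241 and 253 TPM in HFD+Cana, against 333 and 296 TPM in HFD (log2 fold change -0.35, standard error 0.10). Uqcc1, Higd1a and Higd2a were named after their values were seen.

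Regulators of mitochondrial genes were measured for 12 of 14 on the list, with a median log2 fold change of 0.017 and 0 at an unadjusted p under 0.05 in limma. For the factors that bind the motifs searched above the values of the groups were close. Nrf1 had 9.96 and 10.99 TPM in HFD+Cana, against 11.2 and 10.8 TPM in HFD, and Gabpa, the ETS factor of GABP, had 20.6 and 19.3 TPM in HFD+Cana, against 19.5 and 19.7 TPM in HFD. Esrra, an ERR receptor, had 22.0 and 21.7 TPM in HFD+Cana, against 23.2 and 22.1 TPM in HFD. Yy1 had 30.9 and 33.3 TPM in HFD+Cana, against 31.1 and 28.0 TPM in HFD. The coactivator Ppargc1a was below the floor, with 1.33 and 1.10 TPM in HFD+Cana, against 0.650 and 0.896 TPM in HFD, so it was not tested. These 5 genes were named after their values were seen.

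Neighbouring pathways were counted in the same way, against 5.32% of all genes higher and 5.45% lower at an unadjusted p under 0.05. Among 19 genes of the citric acid cycle and pyruvate dehydrogenase the median log2 fold change was -0.076, with 0 higher and 2 lower at that threshold in limma. Among 11 genes of coenzyme Q synthesis it was -0.013, with 0 higher and 1 lower. Among 77 genes of the mitochondrial ribosome, which translates the subunits of mitochondrial DNA, it was -0.028, with 3 higher and 2 lower. Among 78 genes of the cytosolic ribosome it was 0.091, with 74 above 0 (all genes: 7414 of 13788), and 0 higher and 1 lower at that threshold. In 29 of these ribosomal genes the HFD+Cana mice were both above the HFD mice, and in 1 both were below. These shares were 24.3% and 19.8% over all genes, and 18.5% and 28.2% over genes of at least 40 TPM. Of the other cell types listed, 7 endothelial genes summed to 743 and 848 TPM in HFD+Cana, against 954 and 928 TPM in HFD, and 7 genes of adipose progenitors to 2215 and 2354 TPM in HFD+Cana, against 1717 and 2005 TPM in HFD.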

How the data were processed

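RNA of gWAT from 2 HFD+Cana and 2 HFD mice was converted to stranded mRNA libraries and sequenced. The authors ran the nf-core/rnaseq pipeline with Salmon and deposited TPM per gene, that is, estimated reads divided by effective transcript length and scaled to the same total in each sample. The submitters' processing notes name GRCm38 and mm10, and no source used here gives the annotation release. TPM holds no depth, so no counting interval was computed and precision is known only from 2 mice per group. Standard errors, intervals and p-values in limma combine the spread of a gene between these samples with that of other genes. In eBayes the spread of each gene is drawn towards that of other genes of similar level. For members whose mice lay close together, the standard error rests mostly on those other genes.

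The 13788 genes whose mean was 1 TPM or more were fitted as log2(TPM + 1) in limma 3.58.1 under R 4.3.3 (lmFit, eBayes with trend, group as the only term), with Benjamini-Hochberg adjustment over these genes and a threshold of 0.05. The fit was also run on simulated data whose spread depended on level alone. Such data cannot show how it behaves on these mice. TPM are not counts, so count tests were left out. Date-like entries in place of 27 gene names were corrected through the gene IDs. Complexes were assigned by gene name. Named genes were, per complex, the member of highest mean TPM and the 3 of smallest p, all of complex II, and the known isoforms, and others are said to be named after their values were seen. Members, lists and this rule were chosen with earlier results of these data known. Lists got counts and medians and no test. Gene positions and shared 31-base stretches came from GENCODE release M21 (GRCm38), and promoters from RefSeq (GRCm38.p6). Alternatives were pseudocounts of 0.1 and 5, a floor of 5 TPM and no floor, scaling by quantiles, by median of ratios or after removal of mitochondrial DNA genes, eBayes as robust or with no trend, a block for the replicate number, Ndufa4 and Ndufa4l2 in complex IV, and leaving out each mouse. Tables and plots were made in Python 3.11.15 with pandas 2.3.3 and matplotlib 3.10.9.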

Additional observations from a re-analysis of the deposited data

How the results depend on the processing

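No member was called under any alternative, and the smallest adjusted p of a member in limma ran from 0.190 (replicate block) to 0.803 (without HFD replicate 1). Genes called over the whole table, 6 higher and 0 lower, became 0 higher with a pseudocount of 0.1, with no filter on low values, with a floor of 5 TPM and with quantile normalization, 2 with a pseudocount of 5, 13 with eBayes without trend, and 0 without any 1 of the 4 mice. With the replicate number as a block 2 genes were called. Numbers 1 and 2 in the labels name no shared litter or batch, and the deviations of same-numbered mice had a correlation of 0.178 over 13788 genes, and the block gave 2162 genes at an unadjusted p under 0.05, against 1484 without it. With 2 pairs this does not settle whether the numbers pair the mice. The members' median log2 fold change was 0.027 with quantile normalization and -0.054 to 0.035 when single mice were left out. Quantile normalization turned Ndufa4 to 0.018, Atp5b to -0.019 and Cox7a2l to 0.051. Leaving out single mice gave -0.057 to 0.038 for Ndufa4, -0.19 to 0.0030 for Uqcr11, -0.032 to 0.096 for Cox4i1, -0.062 to 0.096 for Atp5b, -0.10 to 0.042 for Cox7a2l and -0.14 to 0.014 for Atp5g1. The medians of complexes I, III, IV and V lay between -0.057 and 0.046 over all alternatives, on both sides of 0, and that of complex II between 0.051 and 0.15. The cause of these changes was not tested. The other named members kept their direction under every alternative run, with Cox6b2 at 0.67 to 1.03 and Cox6a2 at -1.34 to -0.35 with all mice, but not always their size. Leaving out single mice gave 0.077 to 0.19 for Sdha, -0.20 to -0.053 for Sdhc, 0.025 to 0.080 for Sdhd and -0.64 to -0.26 for Cox7a1, which is no member, and quantile normalization gave -0.039 for Atp5g3. Cox6a2 has no value with a floor of 5 TPM. With 2 mice per group and no read counts, the spread of a single gene is poorly known. Small differences in single members therefore cannot be told from variation between mice, also where the mice of a group lay close together.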
